A study of Danio rerio with 24 samples.

Results

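Broad H3K4me3 regions of the zebrafish larval intestine are stretches of 3000 bases or more under peaks of this promoter mark once 6 libraries were merged. Touching H3K4me3 peaks of the 6 libraries were merged into 20118 regions, and 823 of them (4.09%) reached 3000 bases. The other 19295 regions were narrower. The measured H3K4me3 width chose the members, so every H3K4me3 value of theirs below is a description and carries no test. Tests are given for H3K27me3, which the choice did not use.

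The tissue was intestine dissected from AB strain zebrafish at 5, 7 and 9 days post fertilization (dpf), an interval that spans first feeding. Every group was wild type, and every group carried tg(cldn15la:GFP), a transgene with GFP under the cldn15la promoter, which is active in the intestinal epithelium. Chromatin immunoprecipitation with sequencing (ChIP-seq) was done on pools of 25 intestines with the antibodies Millipore 04-745 against H3K4me3 and Millipore 07-449 against H3K27me3. Each age had 2 libraries per mark and 1 input library from 5 intestines, and 3 RNA libraries of each age came from other pools of 10 intestines. Libraries are named by age and number, such as 9dpf_1. A whole intestine holds epithelium, smooth muscle, neurons and blood cells together, so a mark present in fewer cells and less mark per cell cannot be told apart. No label states that pools of the same age were raised or collected apart, and p-values therefore reflect only the variation among these pools, part of it possibly technical.

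H3K4me3 is trimethylation of lysine 4 on histone H3. It is placed by COMPASS-type methyltransferases and marks the promoters of genes that are transcribed or poised. At most promoters it forms a narrow peak, and in mouse and human cells unusually wide stretches of it are known from genes of cell identity and from developmental regulators. H3K27me3 is placed by Polycomb repressive complex 2 and marks silenced developmental genes. A promoter where both marks are found is called bivalent, although in a mixed tissue the marks can also sit in different cells.

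The labelled tissue was checked in the RNA, deposited as normalized read counts. All 6 enterocyte genes looked for were found, and their summed level was 40594 to 75643 at 5 dpf, 107349 to 166034 at 7 dpf and 147244 to 241193 at 9 dpf. Of these genes, apoa1a (7443 to 12220 at 5 dpf, 74477 to 122549 at 9 dpf), fabp2 and vil1 were higher at 9 dpf without overlap. The levels of cldn15la, apoa4b.1 and cdx1b overlapped between 5 and 9 dpf. Other sums without overlap that were higher at 9 than at 5 dpf were those of the goblet gene agr2, at 680 to 984 against 146 to 188, of the 3 leukocyte genes, at 270 to 368 against 156 to 196, and of the 2 kidney genes, at 10559 to 14063 against 3672 to 5867. Nearly all of the last came from cdh17, a cadherin that the intestinal epithelium also makes. Of the leukocyte genes, mpx and ptprc were higher at 9 than at 5 dpf without overlap, and lcp1 overlapped. Sums that were lower at 9 than at 5 dpf, again without overlap, were those of the 3 enteric neuron genes, at 187 to 196 against 229 to 292, of the 3 skeletal muscle genes, at 358 to 415 against 490 to 713, and of the 3 liver genes, at 188 to 233 against 357 to 2246. Within these sums, only the neuron gene elavl3, the muscle gene mylpfa and the liver genes tfa and serpina1 were lower without overlap. The sums that overlapped between 5 and 9 dpf ran, over the 9 libraries, from 6720 to 12369 for the 3 smooth muscle genes, from 1060 to 6901 for the 3 of 4 exocrine pancreas genes found, from 9443 to 17267 for the 3 lysosome-rich enterocyte genes, from 188 to 244 for the 3 enteroendocrine genes and from 6.09 to 14.7 for the 2 islet genes. The erythrocyte gene hbaa1 ran from 0 to 7.56. The 6 H3K4me3 libraries held 16824 to 18799 peaks, the 6 H3K27me3 libraries 5704 to 9119 and the 3 input libraries 717 to 809. The H3K4me3 library 5dpf_1 stood apart, with 141 peaks of 3000 bases or more against 325 to 508 in the other 5 libraries, and results that rest on it are given with and without it. H3K4me3 peaks covered 15.4 to 22.1 Mb per library, least at 5 dpf and most at 9 dpf. Sequencing depth behind the peak lists is unknown, and its part in the widths and folds was not tested.

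The 823 broad regions ran from 3000 to 10941 bases, with a median of 3523, and the 19295 other regions from 134 to 2998 bases, with a median of 1112. The 75th percentile of the broad regions was 4135 bases and the 90th was 5124. They held 12.3% of all bases under merged H3K4me3 peaks, 3.19 of 25.9 Mb. A single peak of 3000 bases or more was present in at least 1 library in 722 broad regions (87.7%), and 101 (12.3%) reached the width only once libraries were merged. Peaks covered 3000 bases or more in all 6 libraries in 149 broad regions, in exactly 1 library in 207 and in none in 100. Almost all broad regions were marked at every age: 809 (98.3%) had a peak in all 6 libraries, against 14591 (75.6%) of the other regions.

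**Figure D1:**
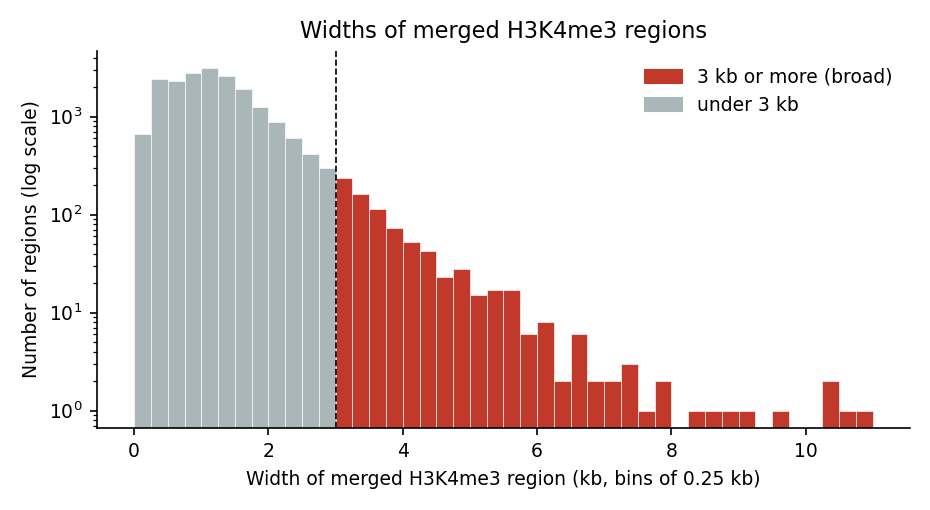
Number of merged H3K4me3 regions (log axis) against region width in kb, in bins of 0.25 kb, with the 3 kb limit dashed. The numbers fall steadily through the limit, with no gap at it, and the widest region measures 10941 bases.

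The limit of 3000 bases cut through a continuous distribution. The 3 narrowest members, ranked B821, B822 and B823 by width, measured 3001, 3000 and 3000 bases, and the 3 widest regions left out measured 2998, 2998 and 2995. One of those left out, at chr9:17778048-17781045 (GRCz10), had H3K27me3 peaks over 72.4% of its bases on average, while none of B821 to B823 had any. All chromosomes held broad regions. Their share of all merged regions was lowest on chromosome 4, with 23 of 1121 (2.05%), and highest on chromosome 14, with 35 of 665 (5.26%). Unplaced scaffolds held 6 of 354 (1.69%).

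The 10 widest regions (B1 to B10) measured 7936 to 10941 bases, and 9 of them had H3K27me3 in all 6 libraries. The widest, B1 at chr13:5433577-5444517, had H3K4me3 peaks over 7209 and 8968 bases at 5 dpf, 10889 and 10696 at 7 dpf and 9436 and 7115 at 9 dpf. Its width was greatest at 7 dpf, where both libraries exceeded the other 4, and H3K27me3 covered 99.7% to 100% of it. B2 at chr1:37467909-37478647 spanned 10739 bases, of which H3K4me3 covered 6394 and 6546 at 5 dpf, 8246 and 8605 at 7 dpf and 7819 and 10291 at 9 dpf. Its fold, the enrichment of a peak over its local background as the authors deposited it, lay below the median of the broad regions in every library, at 4.85 to 5.47.

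The only one of the 10 without H3K27me3 was B3 at chr18:23883831-23894113, which spanned 10283 bases. H3K4me3 covered 8856 and 9697 of them at 5 dpf, 8974 and 9260 at 7 dpf and 8162 and 8646 at 9 dpf, so both 9 dpf libraries lay below the other 4. Its fold was 8.77 and 8.28 at 5 dpf, 11.995 and 10.9 at 7 dpf and 13.8 and 13.7 at 9 dpf, with no overlap between ages. Its cover was thus smallest at the age at which its fold was highest.

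In B4 (chr9:1962129-1972404), B5 (chr17:52732294-52741921), B6 (chr3:23534851-23543887), B7 (chr8:19640259-19649102) and B10 (chr5:71533557-71541492), H3K27me3 covered 90.6% to 100% of the bases on average. B10 showed the largest difference with age among the 10. H3K4me3 covered 3263 and 4041 of its 7936 bases at 5 dpf, 5807 and 4267 at 7 dpf and 6858 and 6890 at 9 dpf, without overlap between ages, and its mean at 9 dpf was 1.88 times that at 5 dpf.

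B8 (chr13:17332624-17341197) and B9 (chr5:49090009-49098474) carried H3K27me3 over a small part of their length, 14.1% and 21.3% on average. In B9 the covered share was 5.61% and 2.75% at 5 dpf, 16.1% and 10.2% at 7 dpf and 60.0% and 33.1% at 9 dpf. The H3K27me3 share of B9 did not overlap between any 2 ages, and its H3K4me3 cover overlapped between all of them, at 6252 and 7131, 7531 and 5849, and 6381 and 5826 bases.

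**Figure D2:**
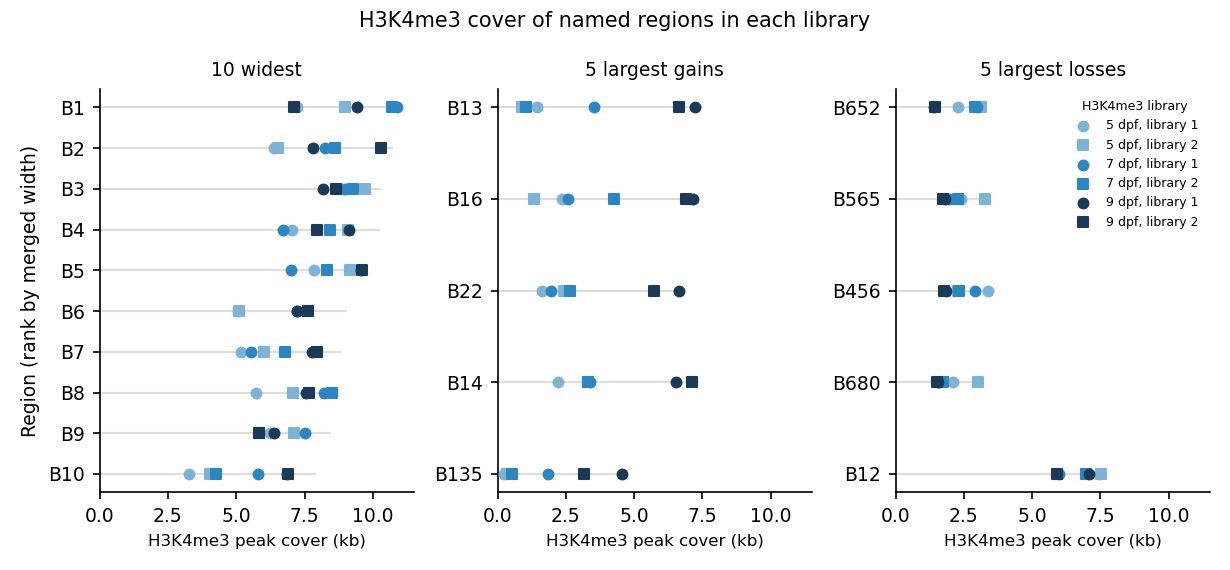
H3K4me3 peak cover (kb) in each of the 6 libraries for the 10 widest regions, the 5 with the largest gain and the 5 with the largest loss from 5 to 9 dpf; grey lines end at the merged width. In all 5 largest gains both 9 dpf points (dark) lie right of both 5 dpf points (pale), and in all 5 largest losses both lie left of them, as the choice of regions with no overlap between these ages requires.

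Width by age was read as the bases of a region under peaks of a library. A region without a peak in a library entered with no covered bases. The median over the 823 broad regions was 2331 and 2853 bases at 5 dpf, 3088 and 2978 at 7 dpf and 3149 and 3075 at 9 dpf. The means were 2592 ± 369, 3033 ± 77.8 and 3112 ± 52.3 bases (SD, n = 2 libraries each). The 5 dpf libraries lay below the other 4, and the 7 and 9 dpf libraries overlapped. The median of the 9 dpf libraries was 1.20 times that of the 5 dpf libraries for the broad regions and 1.31 times for the other regions. In the broad regions the ratio was 1.17 from 5 to 7 dpf and 1.03 from 7 to 9 dpf, and in the other regions 1.19 and 1.10. The first of these steps rested in large part on 5dpf_1. Against 5dpf_2 alone, the median of the broad regions was 180 bases higher at 7 dpf, in place of 441, and 259 higher at 9 dpf, in place of 520, or 1.06 and 1.09 times the 5 dpf value. For the other regions these ratios without 5dpf_1 were 1.10 and 1.22. The summed levels of the enterocyte, goblet, leukocyte and kidney genes were also higher at 9 than at 5 dpf, those of the enteric neuron, skeletal muscle and liver genes lower, and their part in the widths was not tested.

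Replicates differed most at 5 dpf. Between the 2 libraries of an age, a broad region differed by a median of 450 bases at 5 dpf. The median was 256 at 7 dpf and 223 at 9 dpf. Of the 823 broad regions, 682 (82.9%) were wider in 5dpf_2 than in 5dpf_1, against 65.6% of the other regions. As a share of the region, the median absolute difference at 5 dpf was 11.9% for broad and 9.46% for other regions. The greater width in 5dpf_2 was thus also found outside the broad regions. With only 2 libraries per age, an exact permutation test of 2 against 2 cannot go below p = 0.333, so single regions were sorted by whether the libraries of 2 ages overlapped.

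Both 7 dpf libraries exceeded both 5 dpf libraries in width in 402 broad regions (48.8%), where 43.8% of all 20118 regions did so, and both lay below in 27 (3.28%), against 3.78% of all regions. From 7 to 9 dpf, 246 broad regions were wider (29.9%, against 39.3% of all regions), and 142 were narrower (17.3%, against 9.22%). From 5 to 9 dpf, 463 were wider (56.3%, against 62.1%) and 29 narrower (3.52%, against 2.32%). Set against 5dpf_2 alone, without 5dpf_1, the count of broad regions wider in both 9 dpf libraries was 489 (59.4%, against 66.0% of all regions). Both 9 dpf libraries lay below 5dpf_2 in 175 broad regions (21.3%, against 12.5% of all regions). Leaving out 5dpf_1 drops a condition, so counts set against 5dpf_2 alone can only rise. The rise therefore does not show whether the count of narrower regions rested on 5dpf_1. The share of narrower broad regions lay above that of all regions both with and without 5dpf_1. Without it, the 7 dpf libraries exceeded 5dpf_2 in 431 broad regions (52.4%, against 48.6% of all regions) and lay below it in 180 (21.9%, against 19.0%), both near the background. In all these counts a gained peak counted as a wider region, since a region without a peak had no covered bases. As means of 2 libraries, 98.7%, 99.3% and 100% of the broad regions had a peak at 5, 7 and 9 dpf. Of the other regions, 81.2%, 86.4% and 92.1% had one. The part of this in the shares and in the ratios of the medians was not tested.

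The region with the largest gain was B13 at chr4:25070282-25077774, 7493 bases wide and under H3K27me3 throughout in every library. H3K4me3 covered 1434 and 884 of its bases at 5 dpf, 3542 and 1025 at 7 dpf and 7210 and 6649 at 9 dpf. The 7 dpf libraries disagreed with each other, and both 9 dpf libraries lay far above all others. B22 (chr23:35951318-35957944), with 1638 and 2426 bases at 5 dpf, 1973 and 2649 at 7 dpf and 6627 and 5732 at 9 dpf, likewise had both 9 dpf libraries above the rest, and its 5 and 7 dpf libraries overlapped. B14 (chr23:35960045-35967434), which lies next to it, had 2199 and 3314, 3365 and 3301, and 6521 and 7107 bases at the 3 ages. B135 (chr11:3837625-3842170) was almost absent at 5 dpf, at 240 and 353 bases, with 1852 and 510 at 7 dpf and 4546 and 3162 at 9 dpf. Its fold was lower at 9 dpf, at 3.72 and 3.77, than at 5 dpf, at 5.29 and 4.47. Between these ages the fold of B22 was higher without overlap, at 5.98 and 6.51 against 4.76 and 4.52, and those of B13 and B14 overlapped. H3K27me3 covered all of B22, B14 and B135 in every library, as it did B4, B7 and B17 (chr23:35971393-35978416).

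The remaining one of the 5 largest gains, B16 at chr25:34633910-34641044, had H3K27me3 over 3.32% of its bases in library 9dpf_1 and none in the other 5. It also had more blocks, summed over the 6 libraries, than any other broad region. At 5 dpf it was split into 5 and 4 peaks, at 7 dpf into 5 and 4 and at 9 dpf it was a single peak in both libraries. The bases covered were 2345 and 1342 at 5 dpf, 2585 and 4251 at 7 dpf and 7135 and 6910 at 9 dpf. B100, at chr25:34604144-34609031 nearby, had 1235 and 2565 bases at 5 dpf, 2740 and 2889 at 7 dpf and 4850 and 4024 at 9 dpf.

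The 5 largest losses were smaller, at 994 to 1267 bases, and 3 of the 5 regions had no H3K27me3 in any library. B652 at chr17:45748026-45751195 had 2268 and 3136 bases at 5 dpf, 2993 and 2924 at 7 dpf and 1422 and 1448 at 9 dpf. Both 9 dpf libraries lay below the other 4, while the fold was higher there, at 18.8 and 15.5, against 12.6 and 8.49 at 5 dpf.

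Fold enrichment separated all 3 ages. The median fold of the broad regions was 9.01 and 8.61 at 5 dpf, 9.80 and 9.69 at 7 dpf and 14.2 and 13.7 at 9 dpf, or 8.81 ± 0.281, 9.74 ± 0.0808 and 13.9 ± 0.370 (SD, n = 2). The mean of the 9 dpf libraries was 1.58 times that of the 5 dpf libraries for broad regions and 1.38 times for the other regions. Each median was taken over the regions with a peak in that library. These were 810 to 823 broad regions, but 15443 and 15890 other regions at 5 dpf and 17706 and 17838 at 9 dpf. The ratio of the other regions thus compares partly different sets. Both 9 dpf libraries exceeded both 5 dpf libraries in 759 broad regions (92.2%, against 77% of all regions), and both lay below in 11 (1.34%, against 2.78%). In these and the following counts a region without a peak in a library had a fold of 0, so a gained peak counted as a higher fold. A peak was present in all 6 libraries in 98.3% of the broad and 75.6% of the other regions. The part of this in the shares was not tested. Against the 7 dpf libraries, 743 broad regions had a higher fold at 9 dpf (90.3%, against 70.9%) and 20 a lower one (2.43%, against 5.94%). From 5 to 7 dpf, 430 had a higher fold (52.2%, against 47.1%) and 100 a lower one (12.2%, against 12.3%), both near the background. Without 5dpf_1, 792 broad regions (96.2%, against 81.4% of all regions) had a higher fold in both 9 dpf libraries than in 5dpf_2.

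The 5 regions with the highest mean fold measured 3087 to 3884 bases, 3 of them below and 2 above the median width of the broad regions, and none had H3K27me3. B734 at chr24:1011664-1014750 had the highest, with folds of 15.1 and 16.1 at 5 dpf, 17.4 and 17.2 at 7 dpf and 36.1 and 33.3 at 9 dpf, and it was a single unbroken peak in every library. B520 (chr20:7593786-7597108) had 12.85 and 12.99 at 5 dpf, 18.98 and 18.53 at 7 dpf and 32.0 and 30.3 at 9 dpf. B692 (chr18:50710376-50713504) differed least with age of the 5, at 19.9 and 18.9, 22.1 and 21.3, and 22.3 and 20.8. Across the 823 broad regions, wider regions had a slightly lower mean fold (Spearman's rho = -0.161), while across the 19295 other regions wider ones had a higher fold (rho = 0.572). Width and fold come from the same peaks of the same libraries, so these coefficients only describe them.

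The deposited peaks are gapped: each is a span that holds blocks of stronger signal, and 1-base blocks pad its ends. A broad region held a median of 4 blocks per library at 5 and 7 dpf and 3 at 9 dpf. The largest number in 1 region was 14, in B16 in library 7dpf_1. With the padding blocks left out, the mean number of blocks was 1.88 and 1.67 at 5 dpf, 1.64 and 1.68 at 7 dpf and 1.57 and 1.62 at 9 dpf. The 9 dpf libraries lay below the other 4. Broad regions with a single inner block made up 37.4% and 46.6% at 5 dpf, 47.8% and 45.3% at 7 dpf and 53.3% and 50.4% at 9 dpf, so that the 5 and 7 dpf libraries overlapped. The longest block of a region spanned a median of 34.4% and 44.8% of it at 5 dpf, 52.4% and 50.3% at 7 dpf and 60.6% and 56.0% at 9 dpf. Fewer regions were split at later ages: several separate peaks lay in 276 and 145 broad regions at 5 dpf, 107 and 129 at 7 dpf and 50 and 88 at 9 dpf. The other regions showed the same order with age, with several peaks in 264 and 89, 65 and 76, and 14 and 48 regions, and a longest block of 52.8% and 65.8%, 74.3% and 72.2%, and 82.6% and 79.6% of the region.

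H3K27me3 overlapped a larger share of the broad regions than of the others in every library. An H3K27me3 peak touched 183 and 176 of the 823 broad regions at 5 dpf, 174 and 181 at 7 dpf and 206 and 202 at 9 dpf, or 21.1% to 25.0%. The other regions gave 14.5% and 14.1%, 14.6% and 14.7%, and 18.8% and 18.6% at the same ages. A wider region has more room to be touched, so the marks were also compared at the central base of each region. There, H3K27me3 was present in 15.3% and 15.2% of the broad regions at 5 dpf, 14.9% and 14.6% at 7 dpf and 17.3% and 17.3% at 9 dpf, against 12.8% and 12.4%, 12.8% and 12.7%, and 16.5% and 16.4% of the others. Broad regions were higher by 1.84 ± 0.846 percentage points (SD over 6 libraries), in 6 of 6 libraries. This reached p = 0.0312 in a two-sided exact sign-flip permutation test over libraries, the smallest it can give, and did not pass after Benjamini-Hochberg adjustment over the 5 tests made (adjusted p = 0.0521). All 6 libraries read the same regions, so this p-value measures how the difference repeats over libraries and not its spread over regions.

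This small difference depended on the limit of 3000 bases. With a minimum of 2000 bases it turned round, to -2.44 percentage points (exact permutation p = 0.0312), and with 4000 bases it was 10.3. Without the H3K4me3 library 9dpf_1 in the merging it was 0.482 (exact permutation p = 0.219). The dependence on width was not monotonic. The share of region centres under H3K27me3, averaged over the 6 libraries, was 20.1% for the 3073 regions under 500 bases and 18.8% for the 5096 of 500 to 1000 bases. It was 9.84% for the 8922 regions of 1000 to 2000 bases, 10.5% for the 2204 of 2000 to 3000 and 10.3% for the 399 of 3000 to 3500. Above that it was 16.7% for the 187 regions of 3500 to 4000 bases, 18.1% for the 147 of 4000 to 5000 and 34.1% for the 90 of 5000 or more.

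Regions of 5000 bases or more exceeded those of 3000 to 3500 bases by 22.2 and 22.9 percentage points at 5 dpf, 25.2 and 22.4 at 7 dpf and 23.5 and 26.2 at 9 dpf. The mean difference was 23.8 ± 1.62 (SD over 6 libraries), positive in 6 of 6, with p = 0.0312 in the two-sided exact sign-flip permutation test, the smallest it can give (adjusted p = 0.0521). This comparison was chosen after the shares by width had been seen. Its p-value, too, does not measure the spread over regions, since all 6 libraries read the same ones.

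**Figure D3:**
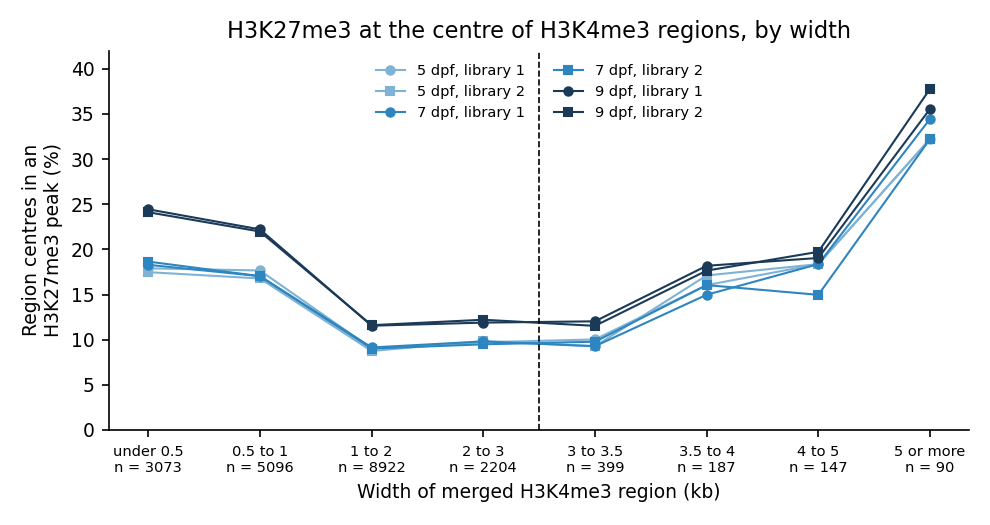
Share of H3K4me3 region centres under an H3K27me3 peak (%) against region width, 1 line per H3K27me3 library, with the 3 kb limit dashed. All 6 lines are high below 1 kb, lowest from 1 to 3.5 kb and highest at 5 kb or more, where they reach 32.2% to 37.8%.

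The share of broad regions touched by H3K27me3 had no trend with age that passed the test. Its slope was 0.744 percentage points per day, with p = 0.111 in a two-sided exact permutation test over the 90 arrangements of the 6 libraries, which can reach 0.0222 (adjusted p = 0.111). Counting only overlaps of 50% or more of a region gave a slope of 0.516, and using only the blocks of the H3K27me3 peaks 0.805, each with an exact permutation p = 0.0444. The slope of the other regions was 1.08 (exact permutation p = 0.0222, adjusted p = 0.0521). The difference between broad and other regions had a slope of -0.338 percentage points per day, which did not pass after adjustment (exact permutation p = 0.0444, adjusted p = 0.0556). Both of these tests were added after the shares had been seen. All H3K27me3 peaks were more numerous at 9 dpf, at 9119 and 8753, than at 5 dpf, at 6163 and 5704, and the part of this in the slopes was not tested.

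Presence was stable between libraries. Of the 823 broad regions, 161 (19.6%) had H3K27me3 in all 6 libraries, 61 (7.41%) in 1 to 5 and 601 (73.0%) in none. Of the 19295 other regions, 2238 (11.6%) had it in all 6, 1781 (9.23%) in 1 to 5 and 15276 (79.2%) in none. The 161 regions marked throughout had a median width of 3771 bases, and 37 of them (23.0%) measured 5000 bases or more. The 601 without H3K27me3 had a median of 3445 bases, and 44 (7.32%) reached 5000.

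In the 161 regions marked throughout, H3K27me3 peaks covered a median of 94.6% of a region's bases. A single H3K27me3 peak covered the whole region in 74 and 73 of the 161 at 5 dpf, 74 and 76 at 7 dpf and 79 and 82 at 9 dpf, and then reached past each edge by a median of 3341 to 4495 bases. It lay wholly inside the region in 15 to 27. Of the 61 regions marked in 1 to 5 libraries, 13 to 45 were overlapped in a given library, and no peak covered a whole region. H3K27me3 lay wholly inside the region in 60.0% to 81.8% of those overlapped. The overlapping peaks, inside or not, had median widths of 583 to 969 bases.

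The H3K4me3 of these classes differed in height and in course. Regions with H3K27me3 throughout had a median fold of 6.02 and 5.71 at 5 dpf, 6.17 and 6.19 at 7 dpf and 7.80 and 7.62 at 9 dpf. Regions without it had 9.57 and 9.25, 10.7 and 10.5, and 15.6 and 15.1 at the same ages. The lower fold with H3K27me3 was also found outside the broad regions. Among the other regions with a peak, those with H3K27me3 throughout had 5.16 and 4.66, 4.82 and 4.79, and 4.84 and 4.63. Those without it had 9.15 and 9.02, 10.2 and 10.1, and 14.0 and 13.6. Over the 823 regions, Spearman's rho between mean fold and mean H3K27me3 cover was -0.497, a description over regions that share libraries.

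Regions with H3K27me3 throughout were wider at each later age. Their median H3K4me3 cover was 2034 and 2688 bases at 5 dpf, 2976 and 2926 at 7 dpf and 3404 and 3323 at 9 dpf, with no overlap between ages and a mean at 9 dpf 1.42 times that at 5 dpf. That ratio includes 5dpf_1, and 5dpf_2 alone had 2688 bases against a 9 dpf mean of 3363.5. In regions without H3K27me3 the cover was 2378 and 2871 at 5 dpf, 3092 and 2983 at 7 dpf and 3092 and 3009 at 9 dpf. There the means were 2624.5 ± 349, 3037.5 ± 77.1 and 3050.5 ± 58.7 bases (SD, n = 2), and the 7 and 9 dpf libraries overlapped. From 7 to 9 dpf, 85 of the 161 (52.8%) were wider without overlap and 12 (7.45%) narrower, against 143 (23.8%) and 122 (20.3%) of the 601. From 5 to 9 dpf, 126 of the 161 (78.3%) were wider and none narrower, against 300 (49.9%) and 27 of the 601. Without 5dpf_1, 128 of the 161 (79.5%) were wider than in 5dpf_2 and 9 narrower, against 324 (53.9%) and 152 of the 601. Among the other regions, 62.7% were wider at 9 than at 5 dpf both with H3K27me3 throughout (1404 of 2238) and without it (9575 of 15276). Their median cover did differ by class. With H3K27me3 throughout it was 0 and 283 bases at 5 dpf, where 49.8% and 54.9% had a peak, and 719 and 737.5 at 9 dpf. Without H3K27me3 the median cover was 739 and 858 at 5 dpf and 1016 and 992 at 9 dpf. The means at 9 dpf were 5.15 and 1.26 times those at 5 dpf. The ratio of 5.15 includes the median of 0 in 5dpf_1. With H3K27me3 throughout, 5dpf_2 alone had 283 bases against a 9 dpf mean of 728.25. Without H3K27me3 it had 858 against 1004. The part of gained peaks in these ratios was not tested. In the shares from 7 to 9 dpf, too, these classes lay in the same order as those of the broad regions: 997 (44.5%) of the 2238 were wider and 93 (4.16%) narrower, against 5980 (39.1%) and 1498 (9.81%) of the 15276. Without 5dpf_1, 118 (5.27%) of the 2238 were narrower at 9 dpf than in 5dpf_2, against 2016 (13.2%) of the 15276. In these shares the order was thus also found outside the broad regions, but not in all shares. Both 9 dpf libraries were wider than 5dpf_2 in 1453 (64.9%) of the 2238, against 10235 (67.0%) of the 15276. From 5 to 7 dpf, 730 (32.6%) of the 2238 were wider, against 7005 (45.9%) of the 15276. Of the broad regions, 77 (47.8%) of the 161 were wider from 5 to 7 dpf, against 299 (49.8%) of the 601. The difference between the classes is a description, since their H3K4me3 width chose them.

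**Figure D4:**
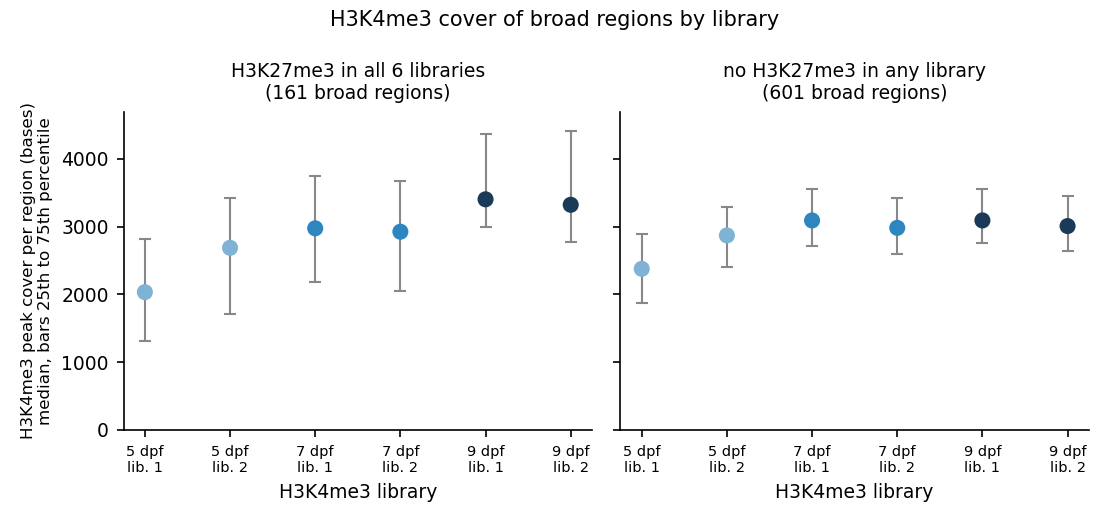
H3K4me3 peak cover per region (bases) in each H3K4me3 library, for the 161 broad regions with H3K27me3 in all 6 libraries (left) and the 601 with none (right); points are medians and bars the 25th to 75th percentiles. On the left the points are higher at each age, with 2034 and 2688 at 5 dpf and 3404 and 3323 at 9 dpf, and on the right the 7 and 9 dpf points lie level.

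Between 7 and 9 dpf the classes differed most at the edges. The edges were set by the same H3K4me3 peaks, so this is not separate from the difference in width. Each region was divided into 20 bins of equal length. In regions with H3K27me3 throughout, H3K4me3 peaks covered the 2 central bins in 71.0% at 5 dpf, 80.4% at 7 dpf and 93.2% at 9 dpf, as means of 2 libraries. The first and last bins were covered in 15.8%, 27.6% and 54.0%. In regions without H3K27me3 the middle was covered in 81.9%, 91.1% and 95.5% and the first and last bins in 30.0%, 48.5% and 47.8%, so that the edges were no fuller at 9 than at 7 dpf. The 2 libraries of 5 dpf differed, with the first and last bins covered in 12.1% and 19.6% with H3K27me3 and in 21.4% and 38.5% without. H3K27me3 itself covered the central bins of its 161 regions in 73.8%, 73.9% and 82.5% and the first and last bins in 69.3%, 70.2% and 76.1%. Midway along flanks of 1 region width on each side it was still present in 42.9%, 42.2% and 45.4%.

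**Figure D5:**
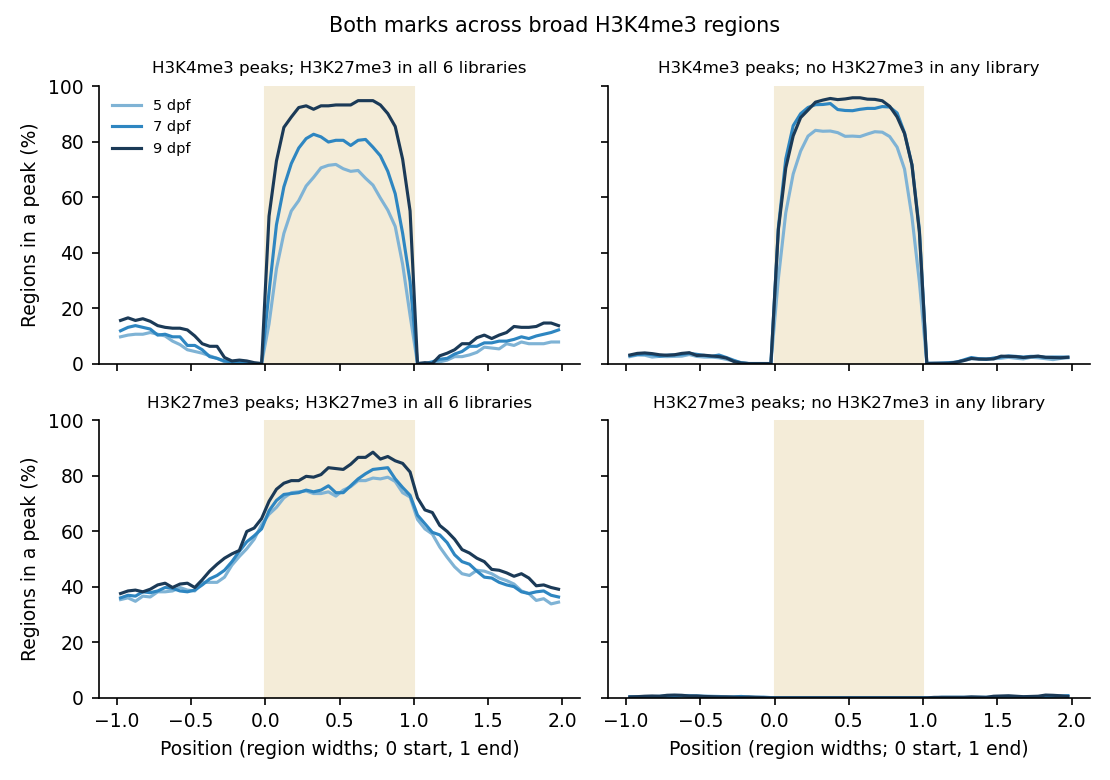
Share of regions under a peak (%) against position in region widths (0 start, 1 end, shaded), for H3K4me3 (top) and H3K27me3 (bottom), in the 161 broad regions with H3K27me3 in all 6 libraries (left) and the 601 with none (right); lines are means of 2 libraries per age. H3K4me3 fills the edges of the left regions mainly at 9 dpf (54.0% in the first and last of 20 bins), while H3K27me3 runs on past both edges. The edges were set by the same H3K4me3 peaks.

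More of the broad regions with H3K27me3 had a broad neighbour. Regions with no other such region on their chromosome or scaffold were left out of these shares. Another broad region was found within 10000 bases of 48 of 817 broad regions (5.88%) and of 465 of 18950 other regions (2.45%). It was so for 31 of 160 broad regions with H3K27me3 throughout (19.4%), against 13 of 596 (2.18%) without. An H3K4me3 region of any width was also within 10000 bases of more of those with H3K27me3 throughout, 87 of 160 (54.4%), against 237 of 598 (39.6%) without. The H3K27me3 peaks of the 6 libraries merged into 12236 regions, of which 221 touched a broad region. These had a median width of 3928 bases, against 866 for the rest. A wider H3K27me3 region has more room to touch a broad region, and the part of this in the difference was not tested. Of the 221, 10 touched 2 or more broad regions, and 33 of the 161 broad regions marked throughout (20.5%) shared theirs with another.

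The H3K27me3 stretch with most broad regions was chr23:35938846-36025984, 87139 bases long, with 16 H3K4me3 regions, 7 of them broad, among them B14, B17 and B22. H3K4me3 covered 17835 and 20935 of the 35758 bases of those 7 at 5 dpf, 22128 and 22395 at 7 dpf and 33007 and 31220 at 9 dpf, without overlap between ages. Most of that difference came between 7 and 9 dpf. The stretch at chr19:20137604-20185009 held 5 broad regions, in which 8723 and 17088 of 25585 bases were covered at 5 dpf, 18552 and 15476 at 7 dpf and 20228 and 22905 at 9 dpf. Here the 5 and 7 dpf libraries overlapped, and both 9 dpf libraries lay above them.

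On chromosome 3, 3 neighbouring H3K27me3 stretches between 23506282 and 23614698, 108417 bases in all, held 10 broad regions, B6 among them. In the stretch with B6, H3K4me3 covered 8834 and 10935 of 19174 bases at 5 dpf. It covered 13419 and 13429 there at 7 dpf and 15292 and 15730 at 9 dpf. At chr3:23569995-23614698 and chr3:23555190-23568913 the 7 and 9 dpf libraries overlapped. The first had 12383 and 13246 of 15292 bases at 7 dpf and 12552 and 12460 at 9 dpf. The second had 6410 and 5571 of 7088 bases, then 6520 and 6262. Stretches with 3 broad regions each lay at chr9:1957603-2015395, where B4 is found, and at chr16:21084357-21128014. In the chromosome 16 stretch, H3K4me3 covered 6218 and 8049 of 14633 bases at 5 dpf, 8448 and 9733 at 7 dpf and 12733 and 12598 at 9 dpf. In the chromosome 9 stretch the 7 and 9 dpf libraries overlapped, with 12359 and 14275 of 19799 bases at 5 dpf, 14816 and 16548 at 7 dpf and 17406 and 15330 at 9 dpf. The stretch around B13, chr4:25067556-25093741, held 2 broad regions, covered over 1434 and 884 of 11052 bases at 5 dpf, 3958 and 1025 at 7 dpf and 10769 and 8000 at 9 dpf.

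Few broad regions gained or lost H3K27me3. From 5 to 9 dpf, 17 had it in both 9 dpf libraries and in neither 5 dpf library (2.07%, against 2.69% of all regions), and 3, B51, B86 and B697, lost it (0.365%, against 0.159%). From 7 to 9 dpf, 14 gained it (1.70%, against 2.4% of all regions) and 1, B410, lost it (0.122%, against 0.0795%). From 5 to 7 dpf, 2 gained it (0.243%, against 0.601%) and 1, B697, lost it (0.122%, against 0.492%). With so few regions, none of these shares stood far from that of all regions.

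Among the gains, B264 at chr12:27038167-27042078 reached the highest cover, at 62.9% and 48.2% of its bases at 9 dpf, with 39.0% and 0% at 7 dpf and none at 5 dpf. B784 at chr8:38124059-38127106 had 11.4% and 18.3% at 7 dpf and 42.2% and 39.1% at 9 dpf. B12 at chr2:4365590-4373170 had 11.6% and 6.24% at 7 dpf and 41.0% and 28.0% at 9 dpf, and was also among the 5 largest losses of H3K4me3 cover, with 7452 and 7534 bases at 5 dpf, 5986 and 6956 at 7 dpf and 7084 and 5914 at 9 dpf. B784 and B12 were the 2 regions that gained H3K27me3 between 5 and 7 dpf. Among the losses, B697 at chr4:18445321-18448441 had H3K27me3 over 38.7% and 29.4% of its bases at 5 dpf and none at 7 or 9 dpf.

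The input libraries, sequenced without an antibody, hardly touched the broad regions. Only B109 at chr4:18602550-18607359 held an input peak, over 4.53% of its bases at 7 dpf and 4.68% at 9 dpf. Input peaks were also rare in the 19295 other regions, in 51 (0.264%) at 5 dpf, 62 (0.321%) at 7 dpf and 43 (0.223%) at 9 dpf.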

How the data were processed

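ChIP-seq peak lists of 15 libraries (6 H3K4me3, 6 H3K27me3, 3 input) and 1 table of RNA from 9 libraries were used. Tools named in the submitters' processing notes are BWA 0.7.15, Picard and MACS2 2.1.1 for ChIP-seq, STAR 2.5.2b and DESeq2 1.16.1 for RNA, and the build GRCz10; each library has its own peak list. The control and the threshold used for the peaks are not given in the sources used here. The lowest deposited −log10 q was 3.01. The fold the authors deposited is the ratio of peak signal to local background, and the deposited score is 10 times the −log10 q, rounded down. The RNA signal the authors deposited is the read count divided by a size factor, and it was used only for marker levels.

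Spans of touching H3K4me3 peaks were merged and kept at 3000 bases or more. An overlap is 1 base or more, the fold of a region is that of its widest peak, and blocks are summed over its peaks. Regions were named B1 to B823 by width, and those described are the widest, those with the highest fold, H3K27me3 cover or number of blocks, those with the largest gain or loss without overlap between ages, and those next to the limit. The region B109, those that gained or lost H3K27me3, the neighbouring stretches and B784, B264 and B697 were chosen after their values were seen. The members and lists were chosen with earlier results of these data known. Shares were compared over libraries with exact permutation tests (Python 3.11.15, numpy 2.4.6, scipy 1.17.1), tested on simulated data. Libraries of the same number did not deviate together, so no pairing was used. Alternatives were another limit, merging distance or peak threshold, blocks in place of spans, and leaving out libraries. Sequences, and genes at the regions, were not analysed here.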

Additional observations from a re-analysis of the deposited data

How the results depend on the processing

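The number of broad regions was 720 to 813 with 1 H3K4me3 library left out and 268 with blocks merged in place of spans. Median H3K4me3 cover at 5, 7 and 9 dpf was 1941, 2406 and 2586.5 bases counted in blocks, and 3443, 4014.5 and 4191 with a minimum of 4000 bases. With 1 library of an age left out and the regions unchanged, only the median of the other library of that age remained. These single-library medians, given above, were 2331 to 2853, 2978 to 3088 and 3075 to 3149. With the 668 members chosen from the replicate 1 libraries and read in the replicate 2 libraries, median cover was 2897, 3020 and 3108. The highest fold of any peak gave a median of 9.87 at 7 dpf, and blocks of the widest peak alone a median of 3 at 5 and 7 dpf. The slope of H3K27me3 overlap was 0.805 with blocks and 0.516 with 50% overlap (exact permutation p = 0.0444 each), 0.568 to 0.959 with 1 H3K27me3 library left out, and had p = 0.167 with a replicate block. The broad minus other difference at centres was -2.44 with a minimum of 2000 bases. Leaving out 1 H3K27me3 library gave 1.64 to 2.04, where the exact test cannot go below p = 0.0625, and leaving out 1 H3K4me3 library 0.482 to 2.78. With a replicate block its 1.84 had an exact permutation p = 0.5, as had the 23.8 of the widest regions. That value was 23.3 to 24.1 and 18.3 to 27.4 with 1 H3K27me3 or 1 H3K4me3 library left out. The slope of the difference was -0.334 with a minimum of 4000 bases, -0.227 with H3K27me3 peaks of −log10 q of 5 or more, -0.245 with blocks and -0.417 with 50% overlap (exact permutation p = 0.133, 0.222, 0.289 and 0.0667). With a replicate block its -0.338 had an exact permutation p = 0.111. It was -0.396 to -0.298 without 1 H3K27me3 library and -0.376 to -0.223 without 1 H3K4me3 library. The cause of these differences was not tested. Deviations of same-number libraries from their age means correlated at -0.0174 to 0.0180. The planned RNA alternatives were not run, since regions were not matched to genes. Depth is unknown, so a stretch without a peak is not shown to lack the mark.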
